A study of Mus musculus with 6 samples.

Results

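The transcription factor p53 (Trp53), its inhibitors and a set of its classical target genes, 32 genes in all, were measured by RNA-seq in mouse embryonic stem cells (mESCs) that lack DNA methyltransferases. The members were taken by gene name from a list of known p53 targets, which was drawn up with earlier results of these data known. All 32 were found among the 53390 genes with a transcript in the libraries, and all 32 passed the filter on low counts, among 18177 genes tested. The cells are TKO mESCs, a line derived from male J1 mESCs in which Dnmt1, Dnmt3a and Dnmt3b are each inactivated (Dnmt1-/-, Dnmt3a-/-, Dnmt3b-/-). One group, TKO-serum, was grown with 15% fetal calf serum and LIF at 500 U/ml. The other, TKO-2i, was grown for 14 days in serum-free N2B27 medium that held more LIF (1000 U/ml) and 2 kinase inhibitors, 1 µM PD0325901 against MEK and 3 µM CHIR99021 against GSK3. Each group has 3 libraries that the labels call biological replicates. Both groups carry the triple knockout and come from 1 cell line, and no wild-type library was analysed here. The groups differ in medium, and any other difference between the cultures cannot be told apart from it.

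p53 is a DNA-binding protein that is held at low levels in unstressed cells by the ubiquitin ligase Mdm2 and its relative Mdm4. When DNA is damaged, kinases release p53 from these inhibitors, and it switches on genes for growth arrest, cell death and DNA repair, among them Mdm2 itself, which closes a feedback loop. Mouse ES cells are known for high p53 levels and for a short G1 phase, and p53 is controlled to a large part through protein stability and modification, which RNA levels do not show.

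Libraries held between 38274042 and 51932739 estimated read counts, and 3 counts in a library correspond to between 0.0564 and 0.0778 CPM, the counts scaled by library size. Library sizes for CPM were corrected by TMM, which allows for differences in RNA composition, while TPM values also divide by transcript length and are used where levels of different genes are set side by side. Within a group the lowest correlation of libraries was 0.988, and between the groups the highest was 0.938. Of all genes tested, 62.5% passed an adjusted p of 0.05 by edgeR's quasi-likelihood F-test, adjusted after Benjamini and Hochberg, 31.9% with higher and 30.6% with lower values in TKO-2i, so that a call by itself was common in this comparison. Genes on chromosomes 6 and 11 had median log2 fold changes of 0.41 and 0.26, where all other autosomes and the X lay between -0.15 and 0.05. The 3 knocked-out genes were still transcribed, with Dnmt1 at 25.7 to 34.6 TPM, Dnmt3a at 4.30 to 23.0 TPM and Dnmt3b at 6.71 to 20.9 TPM. Counts summed over a gene do not check a deleted part of it. All 10 mES cell markers examined were expressed, with a summed level of 5799 to 6308 CPM in TKO-2i against 5363 to 5775 in TKO-serum. Single markers did not share the direction of this sum, since 4 were called higher in TKO-2i, 4 lower and 2 were not called.

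Of the 32 p53 genes, 17 were lower and 6 were higher in 2i, and 9 did not pass the threshold. The share of lower genes was 53.1% against the 30.6% of all genes, and the share of higher genes 18.8% against 31.9%. Most of the differences were modest. The median log2 fold change over the 32 genes was -0.24, against 0.01 over all genes tested, and only Plk2 and Plk3 fell and Gdf15 rose by at least 2-fold, 3 genes or 9.38% of the members against a background of 23.3% (7.72% higher and 15.6% lower). In 25 of the 32 genes the 3 TKO-2i values did not overlap the 3 TKO-serum values, which held for 67.5% of all genes tested. The calls did not run 1 way in every role. Among the cell cycle and growth arrest genes 6 of 7 were lower, among the cell death genes 5 of 10 were lower and 1 was higher, and among the DNA repair genes 3 of 5 were higher and 2 lower. In bulk RNA, fewer cells that express a gene and less RNA per cell cannot be told apart.

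**Figure D1:**
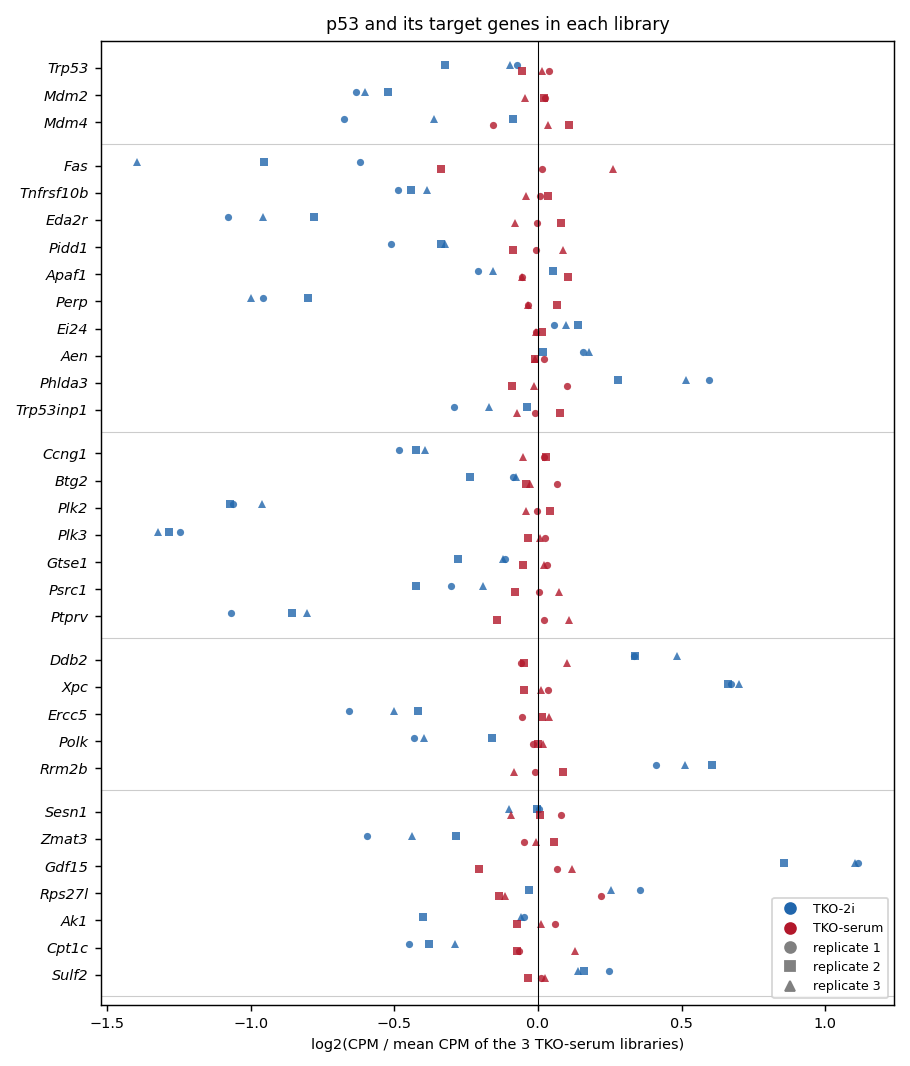
Each row is a gene, grouped from top to bottom into p53 and its inhibitors, cell death, growth arrest and cell cycle, DNA repair and nucleotide supply, and stress, metabolism and others. Points are single libraries (TKO-2i blue, TKO-serum red, the symbol gives the replicate) as log2 of CPM over the TKO-serum mean. Apart from 1 point of Fas, the 3 blue points of Plk3 lie furthest to the left, and those of Gdf15 furthest to the right, while the points of Sesn1 mix.

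The genes differed widely in level. On the TPM scale the highest was Rps27l, with a mean of 797 TPM over the 6 libraries, followed by Trp53 at 357 and Ccng1 at 164 TPM. Fas, the death receptor, was the lowest at 0.286 TPM. The median over the 32 genes was 20.3 TPM, against 7.51 TPM over all genes tested, and 27 of the 32 had a mean of at least 10 TPM. Short transcripts such as that of Rps27l rank higher in TPM than in CPM.

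**Figure D2:**
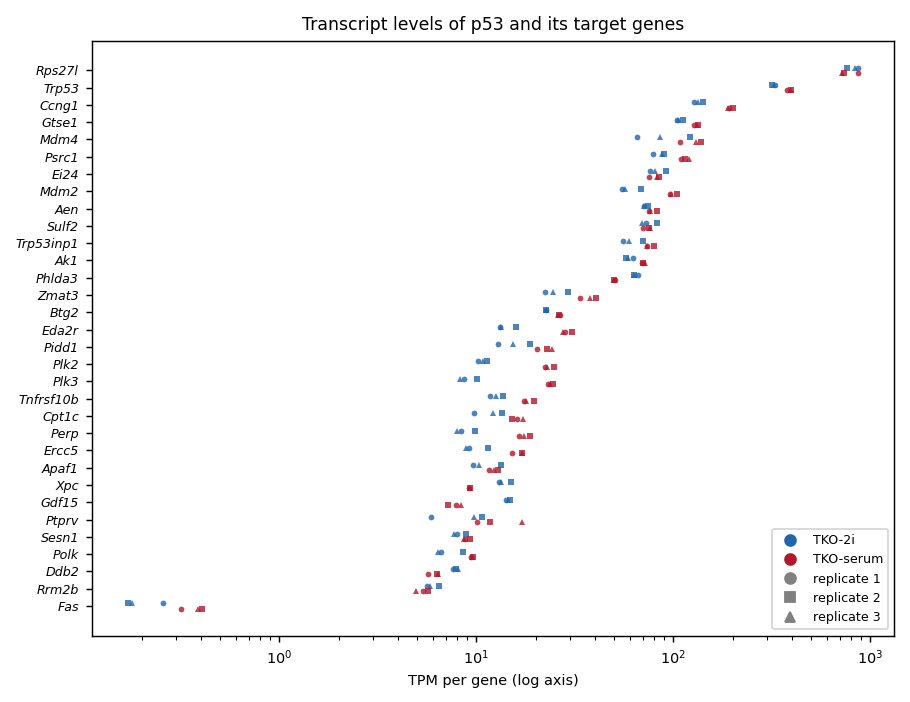
The TPM of each gene in the 6 libraries is shown on a log axis, ordered by mean level, with TKO-2i in blue and TKO-serum in red. Levels span from under 1 TPM for Fas to means of 797 TPM for Rps27l and 357 TPM for Trp53.

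p53 itself showed a small difference that missed the threshold. Trp53 (ENSMUSG00000059552, chr11:69580359-69591873, plus strand, GRCm38) stood at 493.0, 415.0 and 485.5 CPM in TKO-2i and at 533.2, 498.9 and 524.4 CPM in TKO-serum. Every TKO-2i library was below every TKO-serum library, and replicate 2 of TKO-2i was the lowest. The log2 fold change was -0.16 ± 0.07 (SE, adjusted p = 0.0838, edgeR's quasi-likelihood test). Trp53 was called lower in 8 of 16 other settings of the analysis, among them without TKO-2i replicate 1 (-0.22). Without TKO-2i replicate 2 the value shrank to -0.079 and was not called, and relative to the raised median of chromosome 11 the value was -0.42. On the TPM scale the means were 323 in TKO-2i and 391 in TKO-serum.

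Mdm2, the ubiquitin ligase that marks p53 for degradation and is itself a p53 target, was lower in TKO-2i. Its CPM were 94.4, 101.9 and 96.6 in TKO-2i and 148.8, 148.5 and 141.9 in TKO-serum, so that the groups were far apart relative to their spread. The log2 fold change was -0.58 ± 0.05 (SE, adjusted p = 2.73e-05). Mdm4, a relative of Mdm2 that binds p53 and blocks its activity, had 183.8, 276.0 and 228.5 CPM in TKO-2i against 263.4, 315.9 and 301.0 in TKO-serum. The groups overlapped, since replicate 2 of TKO-2i lay above replicate 1 of TKO-serum. The log2 fold change of Mdm4 was -0.36 ± 0.14 (SE, adjusted p = 0.0499, edgeR), just under the threshold, and the call was lost in 8 of 16 other settings, among them all 3 that are built on TPM. It was also lost without TKO-2i replicate 1 (-0.23) or 3 (-0.36) and without TKO-serum replicate 2 (-0.30) or 3 (-0.34).

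The promoter of Mdm2 is shown because Mdm2 is the first of the inhibitors listed. Its window holds a match to the p53 half-site, and whether p53 acts through this match was not tested. p53 binds DNA at pairs of half-sites, each made of a run of purines, a C, a pair of A or T bases, a G and a run of pyrimidines. The window runs from 250 bases before to 50 bases after the annotated start (RefSeq, GRCm38.p6, chr10:117710709-117711008, minus strand), and capitals mark the half-site match.
Mdm2 promoter: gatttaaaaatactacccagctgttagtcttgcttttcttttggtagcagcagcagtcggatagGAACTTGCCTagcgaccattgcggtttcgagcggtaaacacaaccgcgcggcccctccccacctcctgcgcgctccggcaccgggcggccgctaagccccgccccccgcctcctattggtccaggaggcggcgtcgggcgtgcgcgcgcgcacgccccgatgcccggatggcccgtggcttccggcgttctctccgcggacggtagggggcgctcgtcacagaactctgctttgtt

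Such matches were found in several other windows. RefSeq held a window for 24 of the 32 genes, 36 windows in all. Both strands were searched, and a half-site read on the other strand is again a half-site. A match stood in the windows of 9 of these genes (37.5%), against 9.55% of 27025 genes with a window and 8.39% of the 12440 of them that were tested here. Counted by window, a match was in 10 of 36 (27.8%), against 8.36% of all 32851 windows. A full site, with 2 half-sites at most 13 bases apart, was in no window of the members and in 0.0740% of all genes. With 1 mismatch allowed in each half-site, outside its fixed C and G, a full site was in 3 genes (12.5%). These were Ccng1, Gtse1 and Rps27l, and the share of all genes was 3.09%. Each window follows an annotated start, and some starts lie inside the gene. The matches of Gtse1 and Rps27l stood 210 bases and 117 and 220 bases after the start of the leading transcript, and that of Polk stood 23067 bases after it, at an internal start. Sequence outside these windows was not searched, and matches are letters in a window, not measured binding. The half-site matches are printed below with 10 bases on each side in the direction of the gene, and capitals mark the match.
Trp53 (chr11:69580274-69580303, plus strand): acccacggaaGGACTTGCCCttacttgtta
Ei24 (chr9:36797325-36797354, minus strand): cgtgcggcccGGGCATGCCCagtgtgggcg
Aen (chr7:78895927-78895956, plus strand): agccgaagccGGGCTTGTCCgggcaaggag
Ccng1 (chr11:40755452-40755481, minus strand): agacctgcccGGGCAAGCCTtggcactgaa
Gtse1 (chr15:85859945-85859974, plus strand): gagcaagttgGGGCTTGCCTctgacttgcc
Polk (chr13:96519399-96519428, minus strand): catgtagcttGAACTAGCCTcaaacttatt
Sesn1 (chr10:41887256-41887285, plus strand): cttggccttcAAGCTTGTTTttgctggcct
Rps27l, first match (chr9:66946193-66946222, plus strand): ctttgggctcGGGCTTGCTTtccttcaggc
Rps27l, second match (chr9:66946296-66946325, plus strand): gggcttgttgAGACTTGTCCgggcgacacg

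Of the 9 genes with a match, Mdm2, Ccng1, Gtse1 and Polk were lower in TKO-2i, and Trp53, Ei24, Aen, Sesn1 and Rps27l did not pass the threshold. For comparison, 53.1% of all 32 members and 30.6% of all genes tested were lower. A link between matches and differences was not tested. A CHR element (TTTGAA or TTCGAA on either strand) is a motif of cell cycle promoters. It was in 5 of the 24 genes (20.8%), against 21.7% of all genes with a window and 16.7% of those tested. A CArG box, the binding motif of serum response factor, was in no member window and in 1.81% of all genes.

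Of the 5 cell death genes that were lower, 3 encode receptors. Eda2r, a receptor of the tumour necrosis factor receptor family, had 27.9, 34.4 and 30.4 CPM in TKO-2i against 58.9, 62.3 and 55.9 in TKO-serum. The groups lay well apart, at a log2 fold change of -0.93 ± 0.08 (SE, adjusted p = 1.78e-05, edgeR). Tnfrsf10b, the mouse TRAIL receptor, had 28.7 ± 1.02 CPM in TKO-2i against 38.9 ± 1.06 in TKO-serum (SD, n = 3), with a log2 fold change of -0.44, or -0.28 relative to its chromosome. Perp, a membrane protein of desmosomes that p53 induces during apoptosis, stood at 8.35, 9.30 and 8.09 CPM in TKO-2i and at 15.8, 17.0 and 15.8 CPM in TKO-serum, without overlap. Its log2 fold change was -0.92 ± 0.08 (SE, adjusted p = 1.55e-05, edgeR).

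Fas was scarcely expressed. It had 9, 7 and 5 counts in the TKO-2i libraries and 12, 13 and 17 counts in the TKO-serum libraries, and its log2 fold change of -0.93 ± 0.34 (SE, adjusted p = 0.0405, edgeR) lost its call in 8 of 15 other settings. Among these were the fits without TKO-2i replicate 2 (-0.92) or 3 (-0.76) and without TKO-serum replicate 1 (-0.92) or 3 (-0.77). Pidd1, the scaffold of the PIDDosome that activates an initiator caspase, was lower at a log2 fold change of -0.39, with 36.7 ± 2.60 CPM in TKO-2i against 48.0 ± 2.95 in TKO-serum (SD, n = 3). Apaf1, the core of the apoptosome, did not pass the threshold, at 39.1, 46.9 and 40.6 CPM in TKO-2i and 43.5, 48.6 and 43.5 in TKO-serum. It was called lower without TKO-2i replicate 2, at -0.18, and shrank to -0.06 without TKO-2i replicate 1 and to -0.04 without TKO-serum replicate 2.

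Phlda3, which competes with Akt for membrane lipids and so restrains Akt signalling, was the cell death gene that was higher in TKO-2i. It stood at 69.3, 55.6 and 65.6 CPM in TKO-2i and at 49.2, 43.1 and 45.4 CPM in TKO-serum, and the lowest TKO-2i value was above the highest TKO-serum value. The log2 fold change was 0.47 ± 0.09 (SE, adjusted p = 0.00162, edgeR). Ei24, a protein of the endoplasmic reticulum linked to autophagy, and Aen, an exonuclease of apoptotic cells, had log2 fold changes of 0.10 and 0.12 and were not called. The sign of Aen turned in the 3 settings built on TPM, to -0.11 at the lowest, and without TKO-2i replicate 2 it was called higher, at 0.17. Trp53inp1, a stress protein that acts with p53 in the nucleus, had a log2 fold change of -0.16 with an adjusted p of 0.0882 (edgeR) and overlapping groups, and was called lower in 9 of 16 other settings, among them without TKO-2i replicate 2 (-0.23).

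The growth arrest and cell cycle genes held the largest falls. Plk3 and Plk2 are polo-like kinases that respond to stress and growth signals, and unlike Plk1 they do not drive mitosis. Plk3 (ENSMUSG00000028680) had 17.4, 16.9 and 16.5 CPM in TKO-2i against 42.0, 40.3 and 41.4 in TKO-serum, with a spread of under 1 CPM (SD) in either group. The log2 fold change was -1.28 ± 0.05 (SE, adjusted p = 2.63e-07, edgeR), a 2.43-fold lower level. Plk2 had 23.3, 23.1 and 25.0 CPM in TKO-2i against 48.6, 50.0 and 47.3 in TKO-serum. Its groups were as cleanly apart, with a log2 fold change of -1.03 ± 0.05 (SE, adjusted p = 1.03e-06, edgeR).

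The promoter of Plk3 is given because Plk3 fell most among the members (RefSeq, GRCm38.p6, chr4:117133914-117134213, minus strand). It holds no exact half-site, so that no base is in capitals.
Plk3 promoter: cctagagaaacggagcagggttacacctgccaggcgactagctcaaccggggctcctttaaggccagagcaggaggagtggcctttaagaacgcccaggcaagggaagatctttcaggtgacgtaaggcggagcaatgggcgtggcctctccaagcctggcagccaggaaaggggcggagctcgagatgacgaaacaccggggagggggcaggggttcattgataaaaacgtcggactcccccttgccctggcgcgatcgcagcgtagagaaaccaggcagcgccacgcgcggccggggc

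Ccng1, cyclin G1, which recruits a phosphatase to Mdm2, is among the most responsive p53 targets in mouse cells. Its CPM were 228.9, 238.6 and 243.7 in TKO-2i and 324.9, 326.4 and 308.5 in TKO-serum. The groups did not overlap, and the log2 fold change was -0.43 ± 0.05 (SE, adjusted p = 0.000116, edgeR). Ccng1 lies on chromosome 11, and relative to the raised median of that chromosome the value was -0.70. Ptprv, a phosphatase gene that is annotated in mouse as a processed transcript and not as protein-coding, had 12.8, 14.9 and 15.4 CPM in TKO-2i against 27.3, 24.4 and 29.0 in TKO-serum. Its log2 fold change of -0.90 shrank to between -0.57 and -0.48, with the call lost, in the 3 settings built on TPM.

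The remaining genes of this role differed less. Psrc1, a spindle protein, had 99.6 ± 8.02 CPM in TKO-2i against 122.9 ± 6.54 in TKO-serum (SD, n = 3), with a log2 fold change of -0.30. Gtse1, a microtubule protein that carries p53 out of the nucleus, had a log2 fold change of -0.17 ± 0.06 (SE, adjusted p = 0.0369, edgeR), which lost its call in 4 of 16 other settings, among them without TKO-2i replicate 3 (-0.19), TKO-serum replicate 1 (-0.15) or TKO-serum replicate 3 (-0.16). Its value was -0.11 without TKO-2i replicate 2 and -0.09, with the call lost, relative to its chromosome. Btg2, an antiproliferative factor that recruits a deadenylase to mRNA, was not called at -0.13, although its groups did not overlap. Btg2 was called lower in 5 of 16 other settings, among them both limma fits on TPM (-0.22), and had -0.08 without TKO-2i replicate 2, where it was not called.

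**Figure D3:**
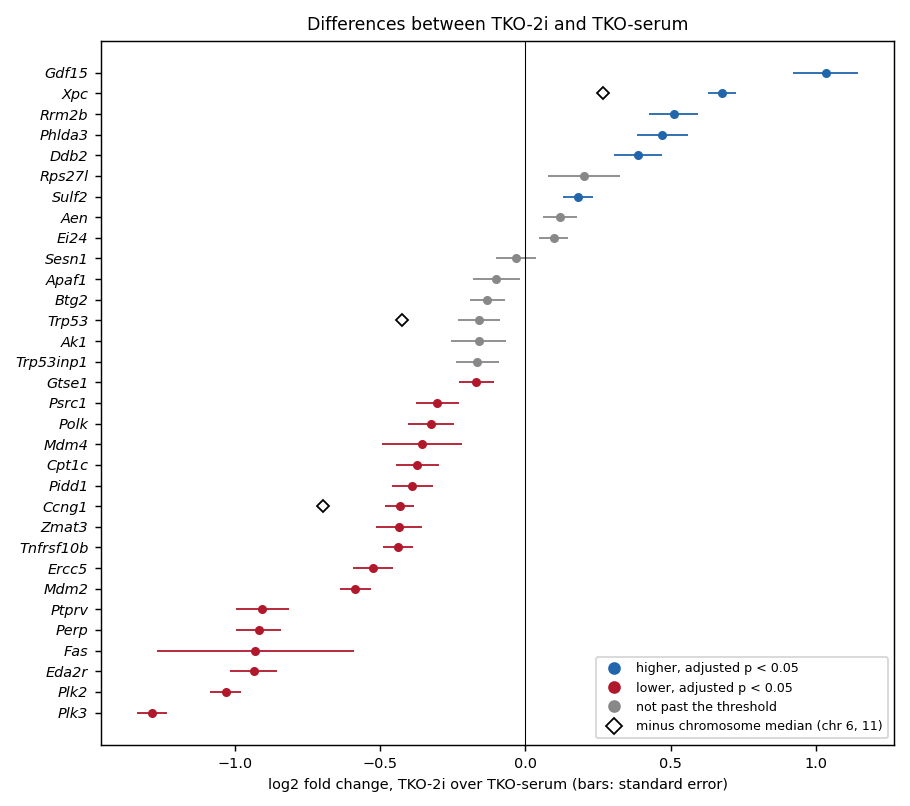
Log2 fold changes of TKO-2i over TKO-serum, with standard errors, are ordered by value for all 32 genes. Blue and red points passed an adjusted p of 0.05, grey points did not, and open diamonds give the value minus the chromosome median for Trp53, Ccng1 and Xpc, the genes on chromosomes 6 and 11. Values run from -1.28 for Plk3 to 1.03 for Gdf15, with more red points than blue ones.

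The DNA repair genes were the role in which higher genes outnumbered lower ones, with a median log2 fold change of 0.39. These were 3 higher and 2 lower of only 5 genes, where 31.9% of all genes tested were higher and 30.6% lower. Xpc and Ddb2 recognise damaged bases at the start of nucleotide excision repair, and both were higher in TKO-2i. Xpc stood at 46.4, 46.0 and 47.3 CPM in TKO-2i and at 29.9, 28.1 and 29.4 CPM in TKO-serum, at a log2 fold change of 0.68 ± 0.05 (SE, adjusted p = 5.88e-06, edgeR). Xpc lies on chromosome 6, and relative to that chromosome's median its value was 0.27 and still called. Ddb2 had 10.3, 10.4 and 11.5 CPM in TKO-2i against 7.88, 7.93 and 8.79 in TKO-serum, with a log2 fold change of 0.39 ± 0.08 (SE, adjusted p = 0.0032, edgeR).

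Ercc5 and Polk were lower. Ercc5, the XPG endonuclease that cuts the damaged strand, had 25.7, 30.3 and 28.6 CPM in TKO-2i against 39.0, 40.9 and 41.6 in TKO-serum, without overlap and at a log2 fold change of -0.52. Polk, a translesion DNA polymerase, was lower at a log2 fold change of -0.32, or -0.21 relative to its chromosome. Rrm2b, the p53-inducible subunit of ribonucleotide reductase, which supplies nucleotides for repair, was higher, at 9.996, 11.4 and 10.7 CPM in TKO-2i against 7.47, 7.99 and 7.09 in TKO-serum. Its log2 fold change of 0.51 ± 0.08 (SE, adjusted p = 0.000811, edgeR) was reduced to 0.14 and 0.16, with the call lost, on log2 of TPM plus 1 and plus 0.1.

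Among the stress and metabolism genes, Gdf15 had the largest rise of all members. Gdf15 (ENSMUSG00000038508) encodes a secreted cytokine of cell stress, and it is induced by p53 and by the integrated stress response. It stood at 13.9, 11.7 and 13.8 CPM in TKO-2i and at 6.74, 5.58 and 6.99 CPM in TKO-serum. The lowest TKO-2i value lay well above the highest TKO-serum value, and the log2 fold change was 1.03 ± 0.11 (SE, adjusted p = 6.63e-05, edgeR), a 2.05-fold higher level. The promoter at the start of its leading transcript is given because Gdf15 rose most (RefSeq, GRCm38.p6, chr8:70632407-70632706, minus strand). It holds no exact half-site.
Gdf15 promoter: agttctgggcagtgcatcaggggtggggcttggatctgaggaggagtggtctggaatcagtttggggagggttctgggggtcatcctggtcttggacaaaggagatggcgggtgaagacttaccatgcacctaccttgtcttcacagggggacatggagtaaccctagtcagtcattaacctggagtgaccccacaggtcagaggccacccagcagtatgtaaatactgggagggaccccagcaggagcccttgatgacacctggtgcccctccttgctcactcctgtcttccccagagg

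Zmat3, an RNA-binding zinc finger protein, was lower, with 102.4, 126.9 and 114.2 CPM in TKO-2i against 149.5, 160.6 and 154.0 in TKO-serum, with a log2 fold change of -0.43. Cpt1c, the brain form of carnitine palmitoyltransferase, was lower at a log2 fold change of -0.37. Sulf2, a sulfatase of the cell surface, was higher by only 0.18, at 245.7 ± 9.90 CPM in TKO-2i against 216.5 ± 4.43 in TKO-serum (SD, n = 3). It lost its call in 5 of 16 other settings, among them without TKO-2i replicate 1 (0.13) or TKO-serum replicate 2 (0.17). The call was also lost in the 3 settings built on TPM, at 0.11 with length-scaled TPM and 0.02 with either limma fit. Sesn1, a sestrin that restrains growth signalling, did not differ beyond its spread, with 18.7, 18.6 and 17.5 CPM in TKO-2i against 19.8, 18.8 and 17.5 in TKO-serum. Rps27l, a relative of a ribosomal protein, and the adenylate kinase Ak1 had log2 fold changes of 0.20 and -0.16 with overlapping groups and were not called. Rps27l was called higher without TKO-2i replicate 2 (0.31) or TKO-serum replicate 1 (0.33), and its value was 0.10 without TKO-2i replicate 1. Ak1 had -0.05 without TKO-2i replicate 2.

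The deposited values are per transcript, so that the make-up of each gene could be described. The estimates depend on how the quantifier divides shared reads, and they were not tested. Trp53-201 held 57.8% of the TPM of Trp53 in TKO-2i and 60.6% in TKO-serum, but single libraries ranged from 48.0% to 72.9%. Trp53-202 held 14.6%, 12.9% and 14.8% in TKO-2i and 18.7%, 18.4% and 20.6% in TKO-serum, without overlap. Mdm2-201 led in all libraries, with 70.1% in TKO-2i and 64.4% in TKO-serum and no overlap. Mdm4-210 led Mdm4, with 50.7% and 47.8%. The leading transcript by mean share differed between the groups in 2 genes. In Apaf1 it was Apaf1-202 in TKO-2i and Apaf1-201 in TKO-serum, with shares that overlapped, and in Ptprv it was Ptprv-202 and Ptprv-210, where Ptprv-202 was listed at 0 in 2 of 3 TKO-serum libraries and the difference did not hold for shares of counts.

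2 further genes were chosen after their shares were seen. Rrm2b-201 held 69.9%, 74.5% and 72.1% of Rrm2b in TKO-2i and 46.5%, 53.1% and 52.6% in TKO-serum. Rrm2b-202, annotated as a retained intron, held 24.8%, 16.7% and 17.2% against 49.9%, 36.2% and 43.9%. The level of Rrm2b-201 was therefore 3.93, 4.80 and 4.19 TPM in TKO-2i and 2.48, 3.02 and 2.60 TPM in TKO-serum, further apart than the TPM of the gene. In Aen, Aen-202 held 4.12% in TKO-2i and 10.8% in TKO-serum, and Aen-203 held 16.2% and 8.86%, without overlap in either.

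**Figure D4:**
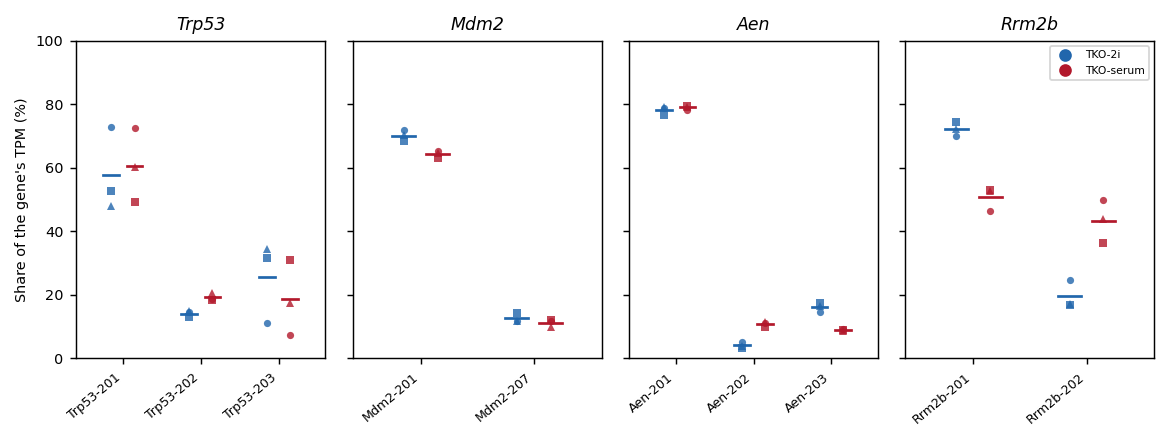
The share of a gene's TPM held by its main transcripts is plotted for Trp53, Mdm2, Aen and Rrm2b in percent, with TKO-2i in blue, TKO-serum in red, 1 point per library and lines at the group means. Rrm2b-201 lies above 69% in all TKO-2i libraries and below 54% in all TKO-serum libraries, while the shares of Trp53-201 spread widely in both groups.

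Other textbook p53 targets, a list of 34 genes with no member in common with the 32, had 20 lower (58.8%) and 8 higher (23.5%) genes in TKO-2i, against 30.6% and 31.9% of all genes, and a median log2 fold change of -0.33. Cdkn1a, the p21 inhibitor of cyclin-dependent kinases and the best known arrest target of p53, was higher, with 145.0, 128.2 and 150.5 CPM in TKO-2i against 54.9, 52.4 and 55.9 in TKO-serum. Its log2 fold change was 1.38 ± 0.07 (SE, adjusted p = 9.94e-07, edgeR), opposite in sign to that of Mdm2 and Ccng1. Trp53cor1, the noncoding RNA lincRNA-p21 that lies next to Cdkn1a, rose to 1.65, 2.09 and 1.85 CPM in TKO-2i against 0.674, 0.526 and 0.653 in TKO-serum. The largest falls were those of Thbs1, thrombospondin, at -5.26 with 0.0893, 0.136 and 0.281 CPM left in TKO-2i, and Rprm, reprimo, at -2.54. Among the death genes Bbc3 (Puma), Pmaip1 (Noxa) and Bax, named here for their role after their values were seen, Bbc3 had -0.72 and Pmaip1 -1.34 on the log2 scale and both were called lower, while Bax was not called at -0.08.

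Among the regulators above p53, 25 DNA damage kinases and p53 modifiers were tested. Of these, 9 (36.0%) were higher and 4 (16.0%) lower, against 31.9% and 30.6% of all genes tested. Their median log2 fold change was -0.0035. Without replicate 2 of TKO-2i, however, 10 were lower, and without replicate 3 of TKO-2i or any 1 of the TKO-serum replicates 2 were. Atm, the kinase that responds to double-strand breaks, had a log2 fold change of 0.00 ± 0.17 (SE). Cdkn2a, whose Arf product binds Mdm2, stood at 28.1, 21.2 and 25.7 CPM in TKO-2i against 13.5, 11.9 and 13.5 in TKO-serum, with a log2 fold change of 0.95 ± 0.11 (SE, adjusted p = 9.77e-05, edgeR), and Smyd2, a methyltransferase that represses p53, was higher by 0.92. The falls were small, with Rad50 of the break-sensing complex at -0.34 and Ppm1d, the Wip1 phosphatase and itself a p53 target, at -0.25.

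Of the 5 genes of the p53 family and cofactors, 3 were lower (60.0%, against 30.6% of all genes lower and 62.5% called). Trp73, the relative p73, fell to 5.04, 5.12 and 5.28 CPM in TKO-2i against 15.7, 15.0 and 17.6 in TKO-serum, at a log2 fold change of -1.65 ± 0.08 (SE, adjusted p = 9.45e-07, edgeR). Trp53bp2, the cofactor ASPP2, had -0.49, and Trp63 was barely expressed at 0.174 to 0.318 CPM and was not called.

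Of 13 mitotic genes, taken because Gtse1, Psrc1 and several p53-repressed genes cycle with mitosis, 5 were lower (38.5%) and 1 higher (7.69%), near the 30.6% of all genes for the lower ones and under the 31.9% for the higher ones, with a median of -0.10. Ccnb1, cyclin B1, was not called at -0.10, Aurkb was higher by 0.31, and Cdc20 (-0.36) and Bub1b (-0.30) had the largest falls. The count of lower mitotic genes was 8 without TKO-2i replicate 2, 2 without TKO-serum replicate 1 and 3 without TKO-serum replicate 3. ERK feedback and immediate-early genes had 12 of 15 lower (80.0%, against 30.6%) and a median of -1.48. The groups differed in PD0325901, CHIR99021, serum and LIF, and the part of each in these falls was not tested. Dusp4 and Dusp6, phosphatases that switch ERK off, fell by 3.23 and 2.92 on the log2 scale, and Etv4 was the gene that was higher, at 0.49. Plk2 and Plk3 are also known as genes that growth factors induce, and whether their fall belonged with this list was not tested.

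**Figure D5:**
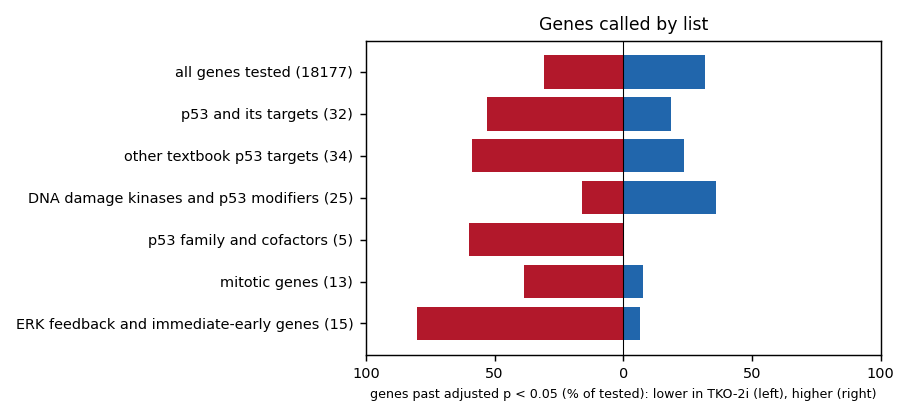
Bars give the share of the tested genes of each list that passed an adjusted p of 0.05, lower in TKO-2i to the left (red) and higher to the right (blue), in percent, with the number of genes tested in brackets. Lower genes are 53.1% of p53 and its targets and 58.8% of the other textbook targets, against 30.6% of all genes tested, and 16.0% of the DNA damage kinases and modifiers.

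Markers of other cell states differed between the groups as well. The summed level of 8 primed epiblast markers was 91.9 to 116.3 CPM in TKO-2i against 706.9 to 739.2 in TKO-serum, and 6 of the 8 were lower and 2 higher. The summed level of 8 endoderm markers was 9.15 to 10.2 CPM against 31.3 to 34.3 CPM, with 6 of the 7 tested lower. The summed level of 8 markers of 2-cell-like cells was 2.74 to 3.57 CPM against 67.8 to 73.2 CPM, with all 8 lower. The TKO line was grown on gelatin without feeder cells. Fibroblast markers summed to 15.8 to 19.9 CPM against 13.2 to 14.7 CPM, and 1 of the 4 tested was higher and 2 lower. Beside these counts of markers, 30.6% of all genes tested were called lower and 31.9% higher. No marker of these lists was at 0 in all libraries of a group. The part of these cell states in the differences of the p53 genes was not tested.

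Some values carry a limit of annotation. Exons of Ei24, Plk3, Ptprv, Ddb2, Rrm2b, Cpt1c and Sulf2 overlap exons of a gene on the opposite strand, by 84 bases for Plk3 and up to 734 bases for Rrm2b. The kit keeps strand, but the strand setting of the quantification is not given in the sources used here, so that reads of the shared bases cannot be assigned with certainty. Processed pseudogenes of Trp53 and Mdm4 were at most at 0.0669 and 0.156 CPM, far below the genes themselves.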

How the data were processed

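RNA-seq libraries of TKO mESCs, 3 grown in 2i and 3 in serum, were made from 500 ng of total RNA with poly(A) selection and a stranded TruSeq kit. The authors deposited estimated counts and TPM for each transcript of each library, with effective lengths, in the columns that salmon writes. The quantifier's version, index and strand setting are not given in the sources used here, and the submitters' notes name mm10. Estimated counts deposited by the authors were not normalized and mostly not whole (85.1% to 85.8% of values above 0), since shared reads are divided between transcripts. The TPM deposited by the authors are scaled for length and to a fixed sum.

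Transcripts (99.9% matched) were assigned to genes with GENCODE M21 (GRCm38), and the sum of estimated counts over each gene was rounded. Low genes were removed by filterByExpr and TMM factors were computed, both in edgeR 4.0.16 under R 4.3.3. The conditions were compared by glmQLFit and glmQLFTest with condition alone in the model, adjusted by Benjamini-Hochberg over 18177 genes. The paper's RNA-seq methods used DEseq, and DESeq2 1.42.0 was an alternative. The standard error is the absolute log2 fold change divided by the square root of F. Errors of CPM are SD over 3 libraries. Counting limits cover counting error only. Medians of chromosomes were taken over tested genes. Motifs were searched in RefSeq promoter windows of GRCm38.p6. On simulated counts with 200 of 18177 genes changed, edgeR recovered 76.0% of genes changed by 1 and 97.1% of those changed by 2 on the log2 scale, with 11 false calls. Of the 23 called members, 20 had an absolute log2 fold change under 1, a size that was not simulated. In the data 62.5% of genes were called, so that these rates do not carry over to the members.

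The members and lists were chosen with earlier results of these data known. The text names all members, and from each other list its first gene and the 2 largest rises and falls among called genes whose mean CPM was 1 or more, and other genes where it says so. 1 listed modifier, Trp53rk, was not matched by name. Alternatives were DESeq2, its size factors in edgeR, no filter on counts, a minimum of 10 counts in each library, length-scaled TPM as counts, limma (version 3.58.1) fitted to log2(TPM + 1) and log2(TPM + 0.1), protein-coding genes only, a replicate block, a chromosome offset, and each library left out.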

Additional observations from a re-analysis of the deposited data

How the results depend on the processing

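Of the 23 members called, 17 kept their call in every alternative run. Fas, Gtse1, Mdm4, Ptprv, Rrm2b and Sulf2 lost it in at least 1. The number of members called ranged from 20 to 26 when each library was left out. The sign turned for Aen, to -0.0115 with counts from length-scaled TPM, -0.10 with limma on log2(TPM + 1) and -0.11 on log2(TPM + 0.1), and for Sesn1, to 0.0125 with the chromosome offset and 0.0132 without TKO-serum replicate 1 (-0.0757 to 0.0132 with a library left out). The cause was not tested. The median log2 fold change of the members was -0.28 and -0.35 with limma (pseudocounts 1 and 0.1) and -0.19 over protein-coding genes, and lay between -0.25 and -0.23 with a library left out. Limma called 4209 genes higher and 5839 lower of all genes, against 5804 and 5557 in edgeR. Lower DNA damage kinases and modifiers numbered 8 with at least 10 counts, 8 over protein-coding genes and 2 to 10 with a library left out. Higher mitotic genes numbered 2 with length-scaled TPM, 0 with either limma fit and 1 to 2 with a library left out, and lower ones 2 to 8. Higher ERK genes numbered 1 to 2 with a library left out. The members with a different leading transcript numbered 1 by counts and 1 to 2 with a library left out. The 10 lower modifiers, 8 lower and 2 higher mitotic genes, 2 higher ERK genes and 1 leading transcript came without TKO-2i replicate 2. With 1 mismatch outside the fixed C and G, a half-site was in 17 of the 24 members with a window (70.8%). The share of all genes was 54.2%. Full sites were in 3 members (12.5%), against 3.09% of all genes.

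With the replicate block, 28 members were called, 8 higher and 20 lower, and 12539 of all genes against 11361 without it. Lower DNA damage kinases and modifiers numbered 9, higher mitotic genes 3 and higher ERK genes 2 in that fit. The deviations of same-numbered samples correlated at 0.24, 0.33 and 0.01 for replicates 1, 2 and 3. Of the TKO-2i samples, 2 of 3 correlated best with their own number. With 3 libraries in each group, these values cannot decide whether the numbers pair the samples. Fas had no value with at least 10 counts in every sample and Ptprv none over protein-coding genes. Depth limits Fas most, with 5 to 17 counts a library.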

Other observations

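Several textbook p53 targets outside the 32 members differed by more than most members did, and they are given as values chosen after the fit was seen. Bid, which links death receptors to mitochondria, had 99.1, 88.1 and 103.7 CPM in TKO-2i and 44.2, 41.9 and 43.2 CPM in TKO-serum, with a log2 fold change of 1.17 (edgeR's quasi-likelihood test, called). Bcl6, a repressor of transcription, was higher by 1.31, and Prkab1, a subunit of the energy sensor AMPK, by 0.75. In the other direction Igfbp3, which binds insulin-like growth factors, had 5.64, 5.41 and 6.26 CPM in TKO-2i and 23.9, 23.7 and 24.1 CPM in TKO-serum, with a log2 fold change of -2.05. Ddit4, an inhibitor of growth signalling, had -0.79, and Epha2, an ephrin receptor, had -0.91. The groups did not overlap in any of these genes, which held for 67.5% of all genes tested. A choice by large differences favours such genes.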
